A study of Mus musculus with 8 samples.

Results

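Naive CD8 T cells of wild-type (WT) mice were compared with naive CD4 T cells of WT mice. The groups compared are 4 of the 8 messenger RNA libraries of the series, namely 2 of CD8 WT and 2 of CD4 WT, taken by the cell type and genotype in their labels, and the spread behind each test is pooled over all 8. Each gene is given in TPM, a length-corrected share of all transcripts of a library. Differences are CD8 minus CD4 on the log2(TPM + 1) scale, which understates the difference of weakly expressed genes. Genes that passed and list medians are also given with CD8 WT replicate 1 alone, for the reason given with the libraries. Many genes that did not pass are given with both CD8 WT libraries only.

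The cells were sorted from spleens and from nodes that the labels call mLNs, in mice 4 weeks of age, as naive cells by surface CD4 or CD8 and low CD44. The WT mice carry no stated transgene or deletion. The other 4 libraries, 2 of each cell type, come from mice with a conditional knockout (KO) of the vesicle-transport gene Trappc1 by CD4-cre, a Cre recombinase that is active in developing T cells and so acts in both lineages. They serve here as a second CD8 against CD4 comparison that shares no library with the WT one, and they also enter the pooled spread of the test and the filter on low values. The labels do not say whether libraries came from separate or pooled mice, so the p-values measure the spread between libraries, which may be technical.

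CD4 and CD8 T cells arise in the thymus from common precursors that carry both co-receptors. CD4 binds MHC class II and marks helper cells, and CD8, a dimer of the products of Cd8a and Cd8b1, binds MHC class I and marks cells that can become cytotoxic. The transcription factor encoded by Zbtb7b directs precursors to the CD4 fate, while RUNX3 directs them to the CD8 fate and silences Cd4.

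The CD8 WT replicate 2 library differed in composition from the other 7. Its neutrophil and macrophage genes summed to 31815 TPM, against 943 in CD8 WT replicate 1 and 642 and 467 in the CD4 WT libraries. Its erythroid genes summed to 95663 TPM, against 2344 in replicate 1 and 77.4 and 175 in CD4 WT. Immediate early genes are switched on within minutes of stimulation or cell handling. They summed to 13418 TPM in CD8 WT replicate 2 and to between 3628 and 4054 in the other WT libraries. In the KO libraries they summed to 9261 and 8842 TPM in CD4 and 4181 and 4574 TPM in CD8 cells. Pan T cell genes summed to 4076 TPM in CD8 WT replicate 2 and to between 8697 and 9196 in the other 3 WT libraries. The pair of CD8 WT libraries had a Pearson's r across genes of 0.821, the CD4 WT pair of 0.944, and replicate 1 of CD8 WT with replicate 1 of CD4 WT of 0.932, where genes are not independent replicates. The CD4 WT libraries held 3.74 and 3.48 gigabases of aligned sequence and the CD8 WT libraries 3.78 and 3.57. The plot of marker sums shows how the list sums differed between libraries.

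**Figure D1:**
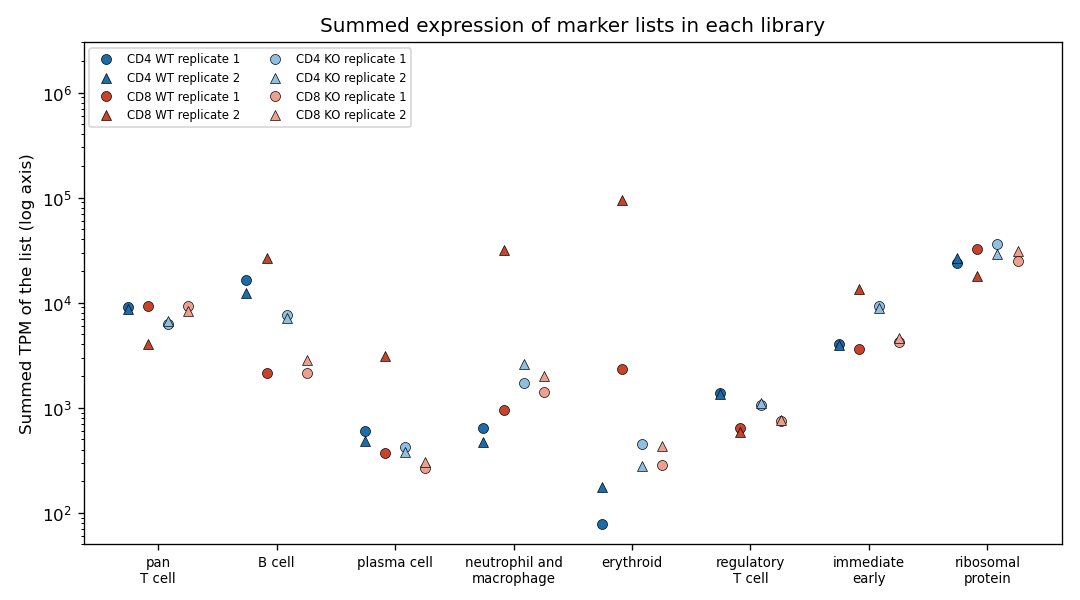
Summed TPM of 8 gene lists (log axis) in each of the 8 libraries, 1 point per library, with circles for replicate 1 and triangles for replicate 2. CD8 WT replicate 2 lies above every other library for B cell, plasma cell, neutrophil and macrophage, erythroid and immediate early genes and below them for pan T cell genes. Regulatory T cell genes lie higher in all 4 CD4 libraries than in all 4 CD8 libraries.

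The co-receptor genes matched the labels of all 4 WT libraries. Cd8a (chromosome 6, 71373427 to 71379171 in the positions of the deposited tables) had 4.10 and 2.90 TPM in CD4 WT replicates 1 and 2 and at 548 and 163 TPM in CD8 WT replicates 1 and 2. Cd8b1, its neighbour on chromosome 6 (71322812 to 71337451), had 14.1 and 29.0 TPM in CD4 and 2192 and 658 TPM in CD8 cells. Both co-receptor genes were high in each CD8 library, and replicate 2 was the lower of the pair for each, as it was for pan T cell genes.

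The log2 difference was 6.07 ± 0.53 (SE, n = 2 per group) for Cd8a, with an adjusted p of 0.00345 from limma, and 6.94 (adjusted p = 0.00284) with CD8 WT replicate 1 alone. For Cd8b1 it was 5.82 ± 0.58 (adjusted p = 0.00508), and 6.68 (adjusted p = 0.00574) with replicate 1 alone.

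Cd4 (chromosome 6, 124864693 to 124888209) had 543 and 764 TPM in WT CD4 and 5.75 and 14.5 TPM in WT CD8 cells. Cd40lg (X, 57212143 to 57224042), which encodes the CD40 ligand that helper T cells use to activate B cells, had 159 and 173 TPM in CD4 and 0.158 and 5.28 TPM in CD8 cells. The groups did not overlap for any of these 4 genes, as for 9.53% of all genes tested with CD8 above and 24.8% with CD8 below, and CD8 WT replicate 2 held more Cd4 and Cd40lg than replicate 1.

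Cd4 fell by 5.98 ± 0.66 on the log2 scale in CD8 cells (adjusted p = 0.00655, limma), and its difference was -6.58 with replicate 1 alone (adjusted p = 0.0162). Cd40lg fell by 5.95 ± 0.82 (adjusted p = 0.0249, limma), and its difference was -7.17 with replicate 1 alone (adjusted p = 0.0104). In the KO libraries the same 4 genes differed by 7.49 (Cd8a), 5.91 (Cd8b1), -8.22 (Cd4) and -6.05 (Cd40lg), each past the threshold.

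The transcription factor genes of the lineage choice did not pass the test. Zbtb7b had 3.33 and 25.4 TPM in WT CD4 and 0.402 and 1.04 TPM in WT CD8 cells. The CD8 libraries lay below the CD4 libraries, but the CD4 pair was far apart, and the log2 difference of -2.66 ± 0.93 had an adjusted p of 0.492 (limma), or -2.93 and 0.594 with replicate 1 alone. Runx3 had 28.8 and 54.7 TPM in WT CD4 and 90.4 and 51.0 TPM in WT CD8 cells, so replicate 2 lay within the CD4 range. Its log2 difference was 0.76 ± 0.42 (adjusted p = 0.615, limma) and 1.17 (adjusted p = 0.481) with replicate 1 alone. In the KO libraries Zbtb7b had 14.0 and 17.8 TPM in CD4 and 0 and 2.90 TPM in CD8 cells, a difference of -3.09. All 4 CD8 libraries thus lay below all 4 CD4 libraries for Zbtb7b, as for 2.95% of all genes tested. Runx3 had 22.3 and 27.3 TPM in CD4 KO and 76.0 and 68.0 TPM in CD8 KO, a difference of 1.51. Neither gene passed in the KO comparison. The plot of lineage genes by library shows the co-receptors, these factors and some CD8 genes together.

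**Figure D2:**
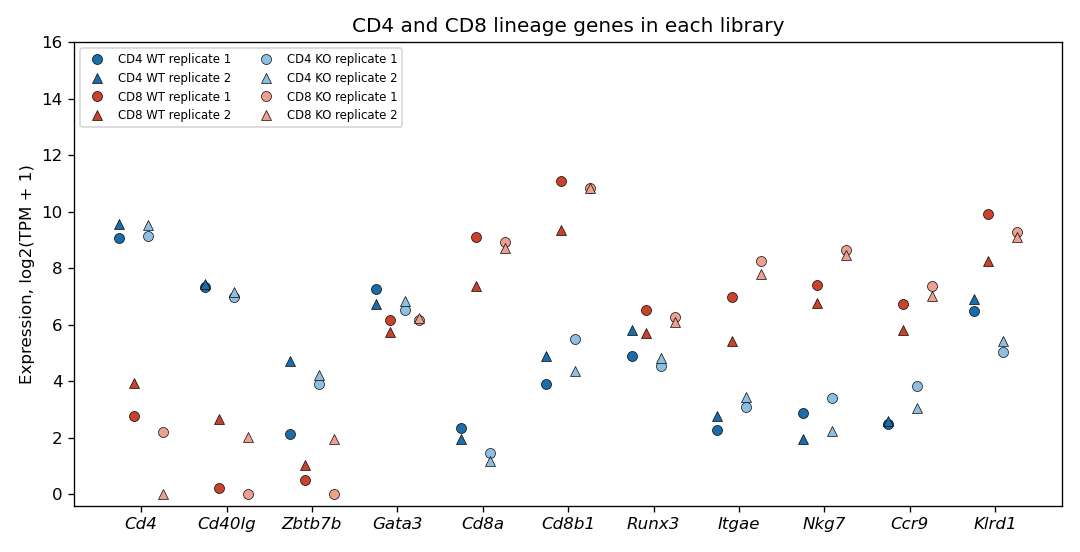
Expression of 11 CD4 and CD8 lineage genes, log2(TPM + 1), in each of the 8 libraries, 1 point per library, with circles for replicate 1 and triangles for replicate 2, WT in dark and KO in light colours. Cd4 and Cd40lg are higher in all CD4 than in all CD8 libraries, Cd8a, Cd8b1, Itgae, Nkg7 and Ccr9 are higher in all CD8 libraries, and Runx3 overlaps between WT groups.

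Promoters of genes that passed the test in each direction are shown to give their sequence context, from RefSeq (GRCm38.p6), from 250 bases before to 50 after the transcription start and 5′ to 3′ on the gene's strand. Capitals mark each match to TGTGGT or to its reverse complement ACCACA, the core hexamer bound by RUNX factors, the only motif searched. Cd8a (chr6:71373177-71373476, plus strand), Nkg7 (chr7:43436888-43437187, plus strand) and Myo1f (chr17:33555457-33555756, plus strand) were higher in CD8 cells. Ecm1 (chr3:95739520-95739819, minus strand) and Tgfbr2 (chr9:116175314-116175613, minus strand) were higher in CD4 cells.
Cd8a: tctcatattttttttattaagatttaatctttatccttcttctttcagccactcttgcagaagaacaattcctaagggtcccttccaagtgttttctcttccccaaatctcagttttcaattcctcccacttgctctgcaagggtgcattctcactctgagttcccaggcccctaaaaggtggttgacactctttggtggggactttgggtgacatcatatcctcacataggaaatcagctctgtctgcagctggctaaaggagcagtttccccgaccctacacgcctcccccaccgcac
Nkg7: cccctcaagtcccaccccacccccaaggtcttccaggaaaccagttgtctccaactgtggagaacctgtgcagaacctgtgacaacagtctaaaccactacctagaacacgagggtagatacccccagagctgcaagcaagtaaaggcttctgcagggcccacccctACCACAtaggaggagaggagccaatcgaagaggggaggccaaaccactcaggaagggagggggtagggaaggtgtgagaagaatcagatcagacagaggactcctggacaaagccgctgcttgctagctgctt
Myo1f: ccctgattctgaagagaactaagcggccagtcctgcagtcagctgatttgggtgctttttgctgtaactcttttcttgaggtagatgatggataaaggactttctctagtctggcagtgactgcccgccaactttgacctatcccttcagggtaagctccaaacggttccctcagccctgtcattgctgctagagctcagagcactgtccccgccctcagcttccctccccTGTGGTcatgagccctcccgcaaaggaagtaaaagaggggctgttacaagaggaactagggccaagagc
Ecm1: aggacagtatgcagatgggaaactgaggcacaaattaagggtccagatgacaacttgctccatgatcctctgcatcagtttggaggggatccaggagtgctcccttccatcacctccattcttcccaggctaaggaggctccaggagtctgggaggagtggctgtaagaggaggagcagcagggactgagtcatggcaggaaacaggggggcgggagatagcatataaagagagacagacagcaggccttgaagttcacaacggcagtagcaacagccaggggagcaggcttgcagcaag
Tgfbr2: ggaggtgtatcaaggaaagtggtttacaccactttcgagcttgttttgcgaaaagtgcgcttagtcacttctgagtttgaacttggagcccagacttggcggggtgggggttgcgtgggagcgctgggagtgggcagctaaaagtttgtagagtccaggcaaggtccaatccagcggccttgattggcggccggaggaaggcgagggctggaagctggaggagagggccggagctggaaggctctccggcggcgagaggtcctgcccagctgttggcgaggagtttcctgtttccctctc

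Of 23 genes that passed the test, 17 had a promoter in the RefSeq table. The hexamer was present for 4 of 11 genes higher in CD8 cells (Ly6c2, Myo1f, Nkg7 and Sytl3) and for 1 of 6 lower in CD8 cells (Fcer2a), while 18.9% of the 27025 genes in that table have it in at least 1 promoter. It was present in 16.8% of all 32851 promoters of this length. A match describes letters in this window only.

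Of 11786 genes tested, 23 (0.195%) differed between WT CD8 and CD4 cells at an adjusted p of at most 0.05 (limma), 13 higher in CD8 cells (0.11%) and 10 lower (0.0848%). The smallest of these differences was 1.91 on the log2 scale. With CD8 WT replicate 1 alone 72 genes passed (0.611%), 23 higher (0.195%) and 49 lower (0.416%), and 19 of the 23 were among them. All 23 kept their sign. In the KO comparison 33 genes passed (0.28%), 22 higher (0.187%) and 11 lower (0.0933%), 11 of the 23 among them, and 21 of the 23 had the same sign there. The exceptions were Hba-a2 and E130102H24Rik. In 20 of the 23 all 4 CD8 libraries lay on 1 side of all 4 CD4 libraries, an order found for 183 genes above (1.55%) and 348 genes below (2.95%) among all genes tested.

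The split between higher and lower moved with the scaling. The median difference over all genes tested was -0.26 with TPM as deposited, -0.06 with replicate 1 alone and -0.02 in the KO comparison. It was 0.02 after median-of-ratios scaling, where 16 genes passed higher and 7 lower, and 0.24 after scaling to pan T cell genes, where 16 passed higher and 4 lower. Directions of the named genes that passed held under both scalings. With 1 KO library left out 11 or 12 genes passed. No gene passed in limma when CD4 WT replicate 1 or replicate 2 was left out, or when only the 4 WT libraries were fitted, where 735, 538 and 497 genes had an unadjusted p under 0.05.

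**Figure D3:**
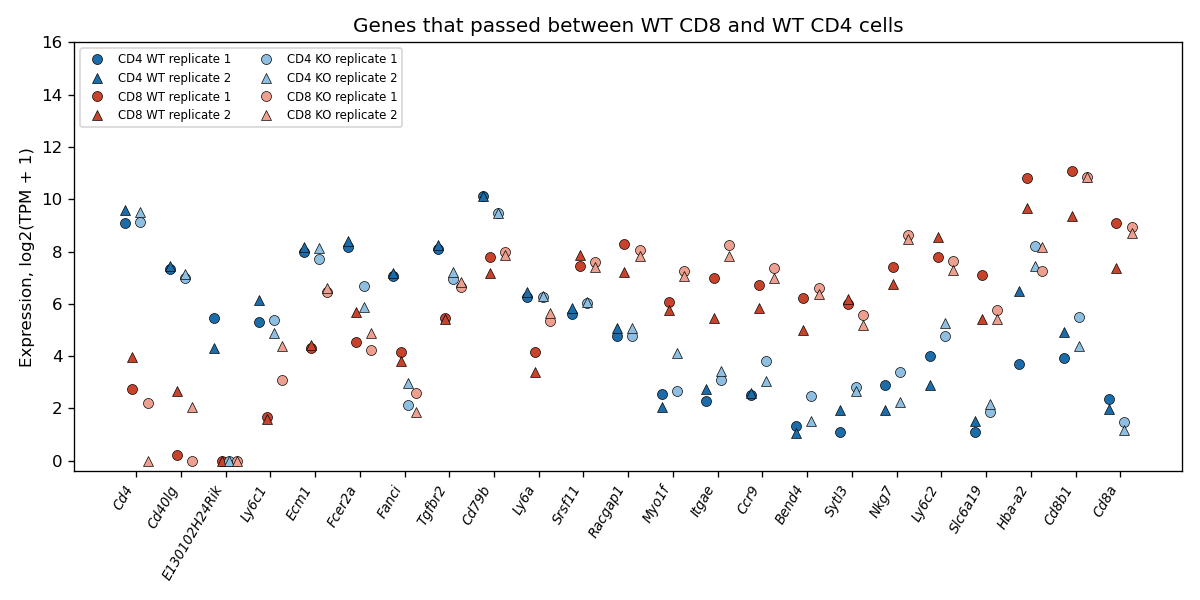
Expression, log2(TPM + 1), of the 23 genes that passed between WT CD8 and WT CD4 cells, ordered by the WT difference, 1 point per library, with circles for replicate 1 and triangles for replicate 2, WT in dark and KO in light colours. The 2 CD8 WT points lie on 1 side of the 2 CD4 WT points for every gene, and for Hba-a2, Fanci and E130102H24Rik the KO points do not show the same separation.

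Genes of tissue homing and retention were among those highest in CD8 cells. Itgae, which encodes the αE integrin chain (CD103) that binds E-cadherin on epithelium, had 3.87 and 5.74 TPM in WT CD4 and 124 and 42.5 TPM in WT CD8 cells. Its difference was 3.69 ± 0.51 (adjusted p = 0.0249, limma), and 4.45 (adjusted p = 0.00594) with replicate 1 alone. Ccr9, the chemokine receptor that guides cells to the small intestine and thymus, had 4.66 and 5.09 TPM in WT CD4 and 105 and 56.0 TPM in WT CD8 cells.

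Both CD8 libraries exceeded both CD4 libraries for each of these homing genes. Ccr9 differed by 3.73 ± 0.44 (adjusted p = 0.0103, limma), and by 4.17 (adjusted p = 0.0104) with replicate 1 alone. Of 22 homing and adhesion receptor genes tested these were the only 2 that passed with both libraries, beside 0.195% of all genes tested. Cxcr5, the receptor for the follicle chemokine CXCL13, was lower with replicate 1 alone (-2.54, adjusted p = 0.0346, limma) and not with both libraries (-1.36, adjusted p = 0.593), at 101 and 103 TPM in CD4 WT against 16.8 and 90.9 TPM in CD8 WT. Cxcr5 is also transcribed in B cells, and B cell genes were higher in the same libraries, as given with those genes, so its source was not tested. The list's median was -0.33, or -0.05 with replicate 1 alone, beside -0.26 and -0.06 over all genes. Ccr7, a chemokine receptor for lymph node entry, had 1865 and 2000 TPM in WT CD4 against 2214 and 1914 TPM in WT CD8 cells.

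Of the CD8 lineage genes known from cytotoxic and natural killer cells, Nkg7 passed with both libraries, and Klrd1, Ctsw and Crtam passed with replicate 1 alone. Nkg7, a granule membrane protein of cytotoxic lymphocytes, had 6.36 and 2.88 TPM in WT CD4 and 169 and 107 TPM in WT CD8 cells, and differed by 4.67 ± 0.49 (adjusted p = 0.00563, limma), or 4.99 (adjusted p = 0.0149) with replicate 1 alone. Klrd1, which encodes the CD94 chain of NKG2 receptors, had 88.2 and 118 TPM in WT CD4 and 973 and 304 TPM in WT CD8 cells. It passed with replicate 1 alone (3.24, adjusted p = 0.00574, limma) and in the KO comparison (3.97), but not with both WT libraries (2.40 ± 0.48, adjusted p = 0.122).

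Ctsw and Crtam showed the same order. Ctsw, the lymphocyte protease cathepsin W, had 84.2 and 103 TPM in WT CD4 against 352 and 147 TPM in WT CD8 cells, and its difference was 1.28 (adjusted p = 0.449, limma), or 1.91 (adjusted p = 0.0452) with replicate 1 alone. Crtam, an adhesion receptor of cytotoxic and NK cells, had 0.752 and 0.704 TPM against 31.0 and 6.71 TPM, a difference of 3.18 (adjusted p = 0.197), or 4.21 (adjusted p = 0.0313) with replicate 1 alone. In each of Klrd1, Ctsw and Crtam the 4 CD8 libraries, WT and KO, lay above the 4 CD4 libraries.

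Of 19 CD8 lineage genes tested, 18 had a positive difference, beside 33% of all genes tested. With replicate 1 alone 18 also did, beside 45.2% of all genes. With both libraries 6 passed higher, beside 0.11% of all genes tested, and none passed lower. The 6 were Cd8a, Cd8b1, Itgae, Nkg7, Ccr9 and Ly6c2. The list's median was 1.85, or 1.91 with replicate 1 alone, and 2.36 in the KO comparison. The exception in sign was Gzmm (5.72 and 4.80 against 2.76 and 3.23 TPM), a granzyme, with a difference of -0.65 (adjusted p = 0.656, limma).

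Some effector genes outside that set were highest in CD8 WT replicate 2. Gzmb, the main granzyme of activated killer cells, was listed at 0 and 0.125 TPM in CD4 WT, at 0 in CD8 WT replicate 1 and at 89.7 TPM in replicate 2. Ifng, the interferon-gamma gene, was listed at 0 in each WT CD4 library and had 1.15 and 28.7 TPM in CD8 WT. The chemokine gene Ccl3 had 7.43 and 3.20 TPM in WT CD4 and 37.7 and 1491 TPM in WT CD8 cells. Prf1, the pore-forming protein perforin, had 27.7 and 39.9 TPM in WT CD4 and 72.0 and 76.2 TPM in WT CD8 cells, and Fasl, the Fas ligand, lay the other way at 8.78 and 32.0 against 1.02 and 2.78 TPM. None of Gzmb, Ifng and Ccl3 passed, with adjusted p from 0.234 (Ccl3) to 0.597 (Gzmb) by limma. Of 23 cytotoxic and effector genes 19 had a positive difference, beside 33% of all genes tested. With replicate 1 alone 14 did, beside 45.2% of all genes. With both libraries 2 passed higher (Nkg7 and Ly6c2), beside 0.11% of all genes, and 1 lower (Ly6c1), beside 0.0848%. Their median was 1.28, and 0.47 with replicate 1 alone. In replicate 2, Gzmb, Ifng and Ccl3 moved together with the neutrophil and macrophage sum and the immediate early sum given above, and the part of either in them was not tested.

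The Ly6 genes of chromosome 15 differed in opposite directions. Ly6c2, which with Ly6c1 encodes the Ly-6C surface antigen, had 15.0 and 6.52 TPM in WT CD4 and 220 and 379 TPM in WT CD8 cells (difference 4.73 ± 0.44, adjusted p = 0.00455, limma, and 4.33 with adjusted p = 0.0132 for replicate 1 alone). Ly6c1 had 38.1 and 69.0 TPM in WT CD4 and 2.15 and 1.99 TPM in WT CD8 cells (-4.09 ± 0.54, adjusted p = 0.0221, and -4.06 with adjusted p = 0.0558 for replicate 1 alone). They are near-identical copies between 75044018 and 75111949, so how reads were divided between them is uncertain.

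Summed over both copies, expression was 53.1 and 75.5 TPM in CD4 WT against 222 and 381 TPM in CD8 WT. In the KO libraries the sum was 67.5 and 66.3 TPM in CD4 and 208 and 175 TPM in CD8 cells, so the order of the sum was the same. Ly6a, which encodes the Sca-1 antigen in the same cluster (74994877 to 74997888), had 75.6 and 85.9 TPM in WT CD4 and 16.9 and 9.60 TPM in WT CD8 cells. It fell by 2.57 ± 0.37 in CD8 cells (adjusted p = 0.0274, limma), and its difference was -2.19 (adjusted p = 0.0247) with replicate 1 alone. Its neighbour Ly6d, a B lineage antigen named after its values were seen, had 147 and 126 TPM against 15.5 and 39.9 TPM, and passed with replicate 1 alone (-3.05, adjusted p = 0.00594) but not with both libraries (-2.40, adjusted p = 0.0761).

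The remaining genes higher in CD8 cells have less familiar roles in naive T cells. Slc6a19, a neutral amino acid transporter best known from kidney and gut, had 1.17 and 1.86 TPM in WT CD4 and 136 and 42.1 TPM in WT CD8 cells (4.95 ± 0.58, adjusted p = 0.01, limma). Bend4, a BEN-domain gene, had 1.51 and 1.11 TPM against 73.4 and 31.1 TPM (4.41 ± 0.55, adjusted p = 0.0138). Sytl3, a synaptotagmin-like protein that binds Rab27 on secretory vesicles, had 1.14 and 2.81 TPM against 63.2 and 72.1 TPM (4.58 ± 0.46, adjusted p = 0.00508).

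These 3 genes were near the floor of detection in CD4 WT and were clearly expressed in both CD8 WT libraries. With replicate 1 alone their differences were 5.79 (Slc6a19), 5.02 (Bend4) and 4.49 (Sytl3), each past the threshold. Racgap1, a GTPase-activating protein of cytokinesis, had 26.0 and 32.9 TPM in WT CD4 and 314 and 148 TPM in WT CD8 cells, a difference of 2.84 ± 0.39 (adjusted p = 0.0249, limma), or 3.38 (adjusted p = 0.00574) with replicate 1 alone. Of 26 cell cycle genes none passed in WT, and their median was 0.73, or 0.11 with replicate 1 alone. In the KO comparison 1 of them passed higher, beside 0.187% of all genes tested. For 3, Ccne1 among them, all 4 CD8 libraries lay above all 4 CD4 libraries, beside 1.55% of all genes tested. Ccne1 had 18.3 and 19.4 TPM in WT CD4 and 55.2 and 48.2 TPM in WT CD8 cells.

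Myo1f, a class I myosin of haematopoietic cells, had 4.83 and 3.13 TPM in WT CD4 and 66.7 and 53.2 TPM in WT CD8 cells (3.63 ± 0.51, adjusted p = 0.0254, limma), but its adjusted p was 0.0607 with replicate 1 alone (3.79). Srsf11, a splicing factor outside the naming rule and named after its values were seen, had 48.4 and 56.3 TPM against 172 and 231 TPM (1.91 ± 0.30, adjusted p = 0.0444, and 1.70 with adjusted p = 0.0349 for replicate 1 alone). The last of the 13, Hba-a2, encodes an alpha-globin chain of red cells. It had 12.1 and 88.9 TPM in WT CD4 and 1813 and 805 TPM in WT CD8 cells (5.14 ± 0.78, adjusted p = 0.0407), but did not pass with replicate 1 alone (5.72, adjusted p = 0.0782) and differed by -0.10 in the KO comparison.

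Hba-a2 has a near-identical copy, Hba-a1, and their summed expression was 12.1 and 89.0 TPM in CD4 WT against 1847 and 78134 TPM in CD8 WT. All 16 erythroid genes tested had a positive difference, beside 33% of all genes tested (45.2% with replicate 1 alone). Their median was 4.36, or 2.79 with replicate 1 alone, and -0.22 in the KO comparison. With replicate 1 alone 13 of the 16 had a positive difference and none passed, and Hba-a2 made up most of that library's erythroid sum of 2344 TPM.

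Among genes higher in CD4 cells, Ecm1 had the lowest p-value of the comparison. It encodes extracellular matrix protein 1, a secreted glycoprotein, and had 250 and 291 TPM in WT CD4 and 19.1 and 20.6 TPM in WT CD8 cells. It fell by 3.70 ± 0.30 in CD8 cells (adjusted p = 0.00312, limma), and its difference was -3.75 (adjusted p = 0.00545) with replicate 1 alone. In the KO libraries Ecm1 had 212 and 283 TPM in CD4 and 86.5 and 96.6 TPM in CD8 cells, a difference of -1.41.

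Tgfbr2, the type II receptor for TGF-beta, which restrains naive T cells and supports their upkeep, had 272 and 308 TPM in WT CD4 and 43.4 and 42.4 TPM in WT CD8 cells. It fell by 2.73 ± 0.28 (adjusted p = 0.00563, limma), and its difference was -2.71 (adjusted p = 0.00594) with replicate 1 alone. Its partner Tgfbr1 had 24.7 and 29.0 TPM against 10.7 and 19.8 TPM and did not pass (-0.83, adjusted p = 0.597). Tgfbr2 was the only one of 21 cytokine receptor genes that passed with both libraries, beside 0.195% of all genes tested.

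Receptors of homeostatic cytokines showed no call. Il7r, the receptor chain for the survival cytokine interleukin 7, had 3168 and 2973 TPM in WT CD4 and 3489 and 1142 TPM in WT CD8 cells. Il2rb, the shared chain of the interleukin 2 and 15 receptors, had 20.4 and 45.0 TPM against 83.7 and 145 TPM, and its difference of 1.83 had an adjusted p of 0.204 (limma), or 1.43 and 0.353 with replicate 1 alone. The list's median was -0.28, or 0.01 with replicate 1 alone.

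Fanci, a Fanconi anaemia DNA repair gene, had 133 and 143 TPM in WT CD4 and 17.1 and 13.1 TPM in WT CD8 cells (-3.12 ± 0.48, adjusted p = 0.0444, limma), but missed the threshold with replicate 1 alone (-2.94, adjusted p = 0.0983). In the KO libraries it stood between 2.60 and 6.87 TPM in both cell types. E130102H24Rik, a gene with no assigned function here, had 43.0 and 18.6 TPM in WT CD4 cells and was listed at 0 in the other 6 libraries, so no fold is given. Its adjusted p was 0.0274, and 0.0346 with replicate 1 alone.

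Of 11 CD4 lineage genes, all had a negative difference with both libraries, beside 7891 of the 11786 genes tested. With replicate 1 alone 10 did, beside 6435 of the 11786. The exception was Icos, at 101 and 116 TPM in CD4 WT against 118 and 49.2 TPM in CD8 WT. In the KO comparison 1 of the 11 had a positive difference. With both WT libraries 2 passed lower, Cd4 and Cd40lg, beside 0.0848% of all genes tested. The list's median was -1.04, or -0.94 with replicate 1 alone. Folr4, the folate receptor 4 gene, had 97.7 and 87.0 TPM in WT CD4 against 26.0 and 13.7 TPM in WT CD8 cells (-2.23, adjusted p = 0.0814, limma). St8sia6, a sialyltransferase gene, had 132 and 76.5 TPM against 19.2 and 6.99 TPM (-3.00, adjusted p = 0.12). In 7 of the 11, Gata3 among them (154 and 105 against 71.7 and 52.0 TPM), all 4 CD8 libraries lay below all 4 CD4 libraries, the order found for 2.95% of all genes tested.

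Of 14 regulatory T cell genes, 12 had a negative difference, beside 7891 of the 11786 genes tested, and 2 a positive one. None passed with both libraries, at a list median of -1.50, or -1.56 with replicate 1 alone and -1.40 in the KO comparison. Foxp3, the defining factor of these suppressor cells, had 6.38 and 14.4 TPM in WT CD4 and 0.0585 and 0.093 TPM in WT CD8 cells (-3.31, adjusted p = 0.119, limma). Il2ra, the high-affinity interleukin 2 receptor chain that regulatory cells carry, had 23.5 and 27.4 TPM against 2.21 and 4.25 TPM (-2.68, adjusted p = 0.112). The 2 exceptions were Il10, an anti-inflammatory cytokine gene (1.40 and 0.243 TPM in WT CD4 against 0.0964 and 17.8 TPM in WT CD8 cells), and Tigit, an inhibitory receptor gene (15.8 and 28.7 against 10.7 and 84.1 TPM), both highest in CD8 WT replicate 2. All 14 members lay below both CD4 WT libraries in CD8 WT replicate 1, an order that 36.1% of all genes tested shared. Capg, an actin-capping protein gene, passed with replicate 1 alone (-1.33, adjusted p = 0.0475, limma). In such bulk samples, fewer cells of a type and less RNA per cell cannot be told apart.

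Costimulatory genes had a median of -0.54, or -0.43 with replicate 1 alone. Cd40lg was the only one of 21 to pass with both libraries, beside 0.195% of all genes tested. Cd28, the main costimulatory receptor of naive T cells, had 252 and 292 TPM in WT CD4 and 135 and 71.5 TPM in WT CD8 cells (-1.46, adjusted p = 0.205, limma). Cd200, which signals to myeloid cells, had 97.6 and 53.3 TPM against 13.6 and 12.3 TPM (-2.39, adjusted p = 0.0814). Cd226, an adhesion receptor of NK and CD8 cells, lay in the other direction at 24.4 and 20.8 TPM against 169 and 50.2 TPM (1.99, adjusted p = 0.349).

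The T cell receptor machinery showed no call. Of 34 signalling genes none passed in either form, and their median was -0.37, or 0.02 with replicate 1 alone. Lck, the kinase that binds both co-receptors, had 1195 and 1004 TPM in WT CD4 and 1679 and 592 TPM in WT CD8 cells. Cd5, a negative regulator of receptor signalling, had 259 and 403 TPM against 159 and 83.5 TPM (-1.48, adjusted p = 0.255, limma). Of 14 pan T cell genes none passed, with a median of -0.48, or 0.05 with replicate 1 alone. After median-of-ratios scaling these medians were -0.07 (receptor signalling) and -0.18 (pan T cell). After scaling to pan T cell genes they were 0.16 and 0.06. That scaling sets the sum of the pan T cell genes equal between libraries, so their median there is largely fixed by it. Some of these genes are also in the receptor signalling list.

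Of 26 lineage choice regulators none passed with both libraries, at a median of -0.07, or -0.01 with replicate 1 alone. Id3, an inhibitor of E-protein transcription factors, had 230 and 195 TPM in WT CD4 and 54.4 and 158 TPM in WT CD8 cells, and passed with replicate 1 alone (-1.94, adjusted p = 0.0235, limma). Tcf7 and Lef1, which maintain naive T cells, showed no call, with Tcf7 at 1896 and 1501 TPM against 1984 and 701 TPM. No ribosomal protein gene of 46 and no respiratory chain gene of 38 passed.

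**Figure D4:**
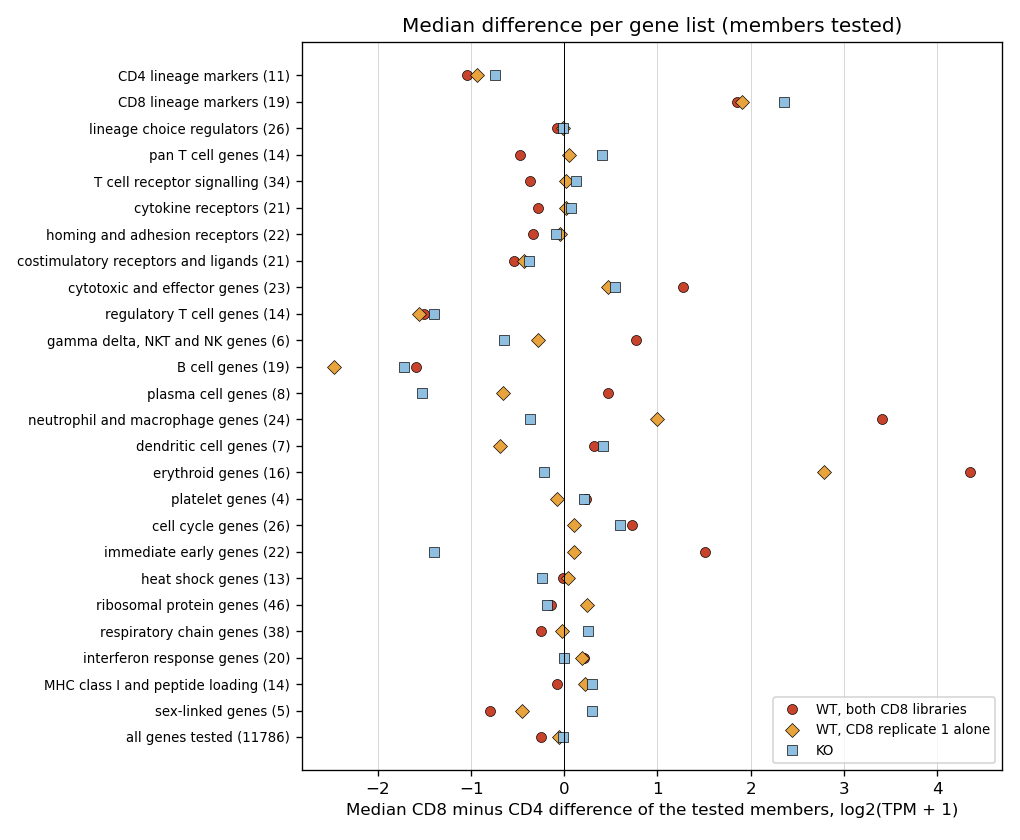
Median CD8 minus CD4 difference, log2(TPM + 1), of the tested members of each gene list, with the number tested in brackets, for both WT CD8 libraries (circles), CD8 WT replicate 1 alone (diamonds) and the KO libraries (squares). CD4 lineage, regulatory T cell and B cell medians are below 0 and CD8 lineage medians above 0 in all 3 sets, whereas neutrophil and macrophage, erythroid and immediate early medians are above 0 in the WT sets and below 0 in the KO set.

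Summed B cell transcripts did not separate the WT groups, since the CD4 WT sums lay between those of CD8 WT. Of the 19 B cell genes, all but Cd79b were higher in CD8 WT replicate 2 than in replicate 1. The 19 B cell genes summed to 16390 and 12427 TPM in CD4 WT and to 2145 and 26597 TPM in CD8 WT, and 1 of them was listed at 0 in CD8 WT replicate 1. Cd79b, a signalling chain of the B cell receptor, had 1116 and 1127 TPM in WT CD4 and 218 and 145 TPM in WT CD8 cells (-2.65 ± 0.28, adjusted p = 0.0057, limma, and -2.35 with adjusted p = 0.00574 for replicate 1 alone). Fcer2a, the low-affinity IgE receptor CD23 of B cells, had 285 and 334 TPM against 22.0 and 51.2 TPM (-3.16 ± 0.46, adjusted p = 0.0311, and -3.75 with adjusted p = 0.0132).

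These 2 passed with both libraries, where 0.0848% of all genes tested passed lower. With replicate 1 alone all 19 had a negative difference, beside 6435 of the 11786 genes tested. The list's median was -1.59, or -2.48 with replicate 1 alone. Cd74, the MHC class II invariant chain, had 7008 and 4510 TPM in WT CD4 and 523 and 11372 TPM in WT CD8 cells, so replicate 2 lay above the CD4 libraries. B cell genes were 9 of the 49 genes lower in CD8 replicate 1 alone, and in 19 of the 49 CD8 WT replicate 2 lay at or above a CD4 WT library. The part of B cell transcripts in the other genes lower in CD8 cells was not tested.

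Most of the genes that passed in WT differed in the same direction in the KO libraries, as the plot of both differences shows. Among all genes tested, 1223 separated in the same direction in WT and KO, and 771 separated in opposite directions. Of the 13 genes higher in CD8 WT, 9 also passed in the KO comparison, and of the 10 lower, Cd4 and Cd40lg did. No gene passed the test of the difference between the WT and KO differences (limma), where 819 genes had an unadjusted p under 0.05. Tgfbr2 had one of the 3 lowest p-values there: its KO levels were 122 and 148 TPM in CD4 and 98.6 and 114 TPM in CD8 cells, a KO difference of -0.34 against -2.73 in WT (difference -2.39 ± 0.40, adjusted p = 0.367).

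The other 2 genes of lowest p separated in opposite directions. Dusp2, a phosphatase that acts on MAP kinases in activated lymphocytes, had 44.0 and 37.0 TPM in WT CD4 and 96.9 and 135 TPM in WT CD8 cells, but at 68.2 and 46.9 TPM in CD4 KO and at 11.4 and 15.6 TPM in CD8 KO. Lcp1, the actin-bundling protein L-plastin, had 684 and 678 TPM in WT CD4 and 516 and 427 TPM in WT CD8 cells, but at 302 and 221 TPM in CD4 KO and at 1107 and 1064 TPM in CD8 KO. Neither difference between genotypes passed (adjusted p = 0.367 for each, limma). Xist is the transcript of the inactive X chromosome in females. It had 0 and 0.0115 TPM in CD4 WT and 0.259 and 3.80 TPM in CD8 WT libraries. In the KO libraries Xist stood between 7.35 and 8.30 TPM. The Y-linked gene Ddx3y was present in all 8, between 168 and 420 TPM in WT and between 111 and 147 TPM in KO. Of 5 sex-linked genes 4 lay below the CD4 WT libraries in both CD8 WT libraries, and none passed. That order held for 24.8% of all genes tested. The part of sex in differences between WT and KO, or between the WT cell types, was not tested.

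**Figure D5:**
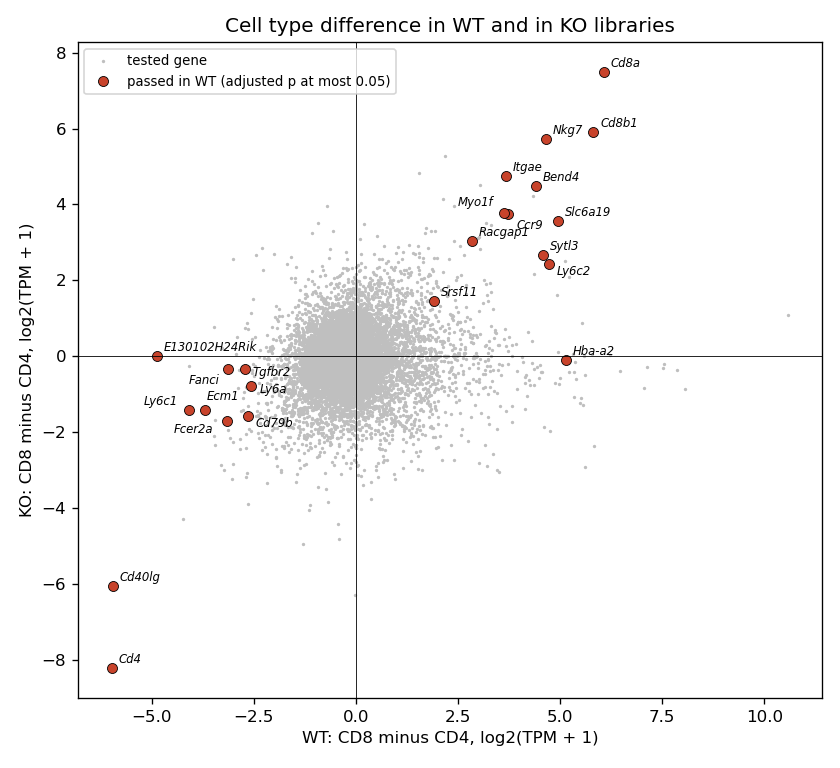
Each of the 11786 genes tested, with its WT CD8 minus CD4 difference on the horizontal axis and its KO difference on the vertical axis, both log2(TPM + 1), and the 23 genes that passed in WT in red. The 12 CD8 genes other than Hba-a2 lie in the upper right, Cd4 and Cd40lg at the lower left, and Tgfbr2, Fanci and E130102H24Rik near a KO difference of 0.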

How the data were processed

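Messenger RNA libraries of naive CD4 and CD8 T cells were prepared with a SMARTER kit from TRIzol RNA, per the labels' protocols. Per the submitters' processing notes, HISAT aligned the reads to mm10. The sources used here give neither its version nor the deleted part of Trappc1. The authors deposited TPM and FPKM for each gene with a coverage signal, per the file headers, and coverage and FPKM gave the aligned bases here. TPM was summed per symbol (23337 symbols), and the 11786 genes that averaged 1 TPM or more across all 8 libraries were tested. No read counts were used, so a gene listed at 0 has no counting limit and the depth behind 1 gene is unknown. Each library listed 5952 to 10634 symbols at 0.

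Log2(TPM + 1) values, with a pseudocount of 1, were modelled in R 4.3.3 by limma 3.58.1, using an intensity trend, 1 mean for each of the 4 groups and 1 pooled spread (4 residual degrees of freedom, prior 5.68). Benjamini-Hochberg adjustment covered all genes tested, with calls at an adjusted p of at most 0.05. With CD8 WT replicate 1 alone, the lone library is assumed to vary like the other groups. Lists are described by counts and medians, with no test. The members, the 25 gene lists (458 genes, of which 5 were matched through older symbols and 6 were absent) and the tests were chosen with earlier results of these data known. Named genes are the co-receptor genes, Cd40lg, Zbtb7b and Runx3, up to 12 passing genes each way with non-overlapping WT groups and at least 5 TPM in the higher group, up to 10 each way separated in all 8 libraries, list members, and the 3 lowest p-values for the WT minus KO difference. The steps were tested on simulated data. Alternatives were other pseudocounts, filters, scalings, FPKM, library weights, a block on replicate numbers, a span correction and leaving out each library.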

Additional observations from a re-analysis of the deposited data

Results flagged for a closer look

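Dusp2 was picked out because its CD8 WT libraries both lay above the CD4 WT libraries while its CD8 KO libraries both lay below the CD4 KO libraries. The WT difference was 1.48 and the KO difference -2.00, so they differed by 3.48 ± 0.52 on the log2(TPM + 1) scale (adjusted p = 0.367, limma). Lcp1 separated the opposite way, at -0.54 in WT and 2.06 in KO, a difference of -2.60 ± 0.39 (adjusted p = 0.367, limma). With CD8 WT replicate 1 alone the WT differences were 1.24 (Dusp2) and -0.40 (Lcp1). Among all genes tested 771 (6.54%) separated in opposite directions in WT and KO, and 1223 (10.4%) separated in the same direction.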

How the results depend on the processing

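All 23 genes that passed kept their direction under all of the 20 alternatives in which they were tested, but the number that passed changed. The WT count was 1 with no filter on low values, 0 when only the compared groups were fitted and 15 with library weights, against 23, and it ranged from 0 (without either CD4 WT library) to 1629 (without CD8 WT replicate 1) when 1 library was left out. It was 72 without CD8 WT replicate 2, 12 without either CD4 KO library and 11 without either CD8 KO library. The KO count was 0 with no filter, 50 after median-of-ratios scaling, 141 with the compared groups only and 353 with library weights, against 33, and ranged from 1 to 153 with 1 library left out. The count for the difference between WT and KO was 0 except for 1148 without CD8 WT replicate 1. The cause of these shifts was not tested.

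With a pseudocount of 0.1, Cd4 (-6.12) and Cd40lg (-7.14) missed the threshold. With no filter and with the compared groups only, Cd4 (-5.98), Cd40lg (-5.95), Cd8a (6.07) and Cd8b1 (5.82) missed it at unchanged differences. Cd40lg missed it after median-of-ratios scaling (-5.62), and Cd4 (-5.45) and Cd40lg (-5.36) after scaling to pan T cell genes. With 1 library left out, differences ranged from -6.58 to -5.38 for Cd4, from -7.17 to -4.73 for Cd40lg, from 5.20 to 6.94 for Cd8a and from 4.95 to 6.68 for Cd8b1, and all 4 missed the threshold without either CD4 WT library, as did Cd40lg without either CD4 KO library. Selplg, at 0.08 with all libraries, reversed to -0.71 without CD8 WT replicate 1 and was 0.88 without replicate 2. Deviations of same-numbered libraries correlated between -0.036 and 0.094, so no pairing by replicate number showed. With 1 deviation per group, and an unlike composition of CD8 WT replicate 2, this cannot settle whether libraries were paired. A replicate block gave 26 WT calls, 21 of them shared with the 23. With 2 libraries a group, and no read counts, the smallest difference that passed was 1.91.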

Other observations

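Several genes separated all 4 CD8 from all 4 CD4 libraries without passing the WT test with both libraries. Gm4956, a predicted gene, had 15.0 and 35.6 TPM in WT CD4 and 0 and 0.631 TPM in WT CD8 cells, and at 10.6 and 32.1 against 0 and 0 TPM in the KO libraries. Adh1, an alcohol dehydrogenase that also oxidises retinol, had 58.5 and 44.3 TPM in WT CD4 and 10.5 and 0.981 TPM in WT CD8 cells. The non-coding locus AI480653 had 17.7 and 24.1 TPM against 1.40 and 0.661 TPM, and Cd200r1, the receptor for CD200, at 33.8 and 52.0 against 4.96 and 2.52 TPM. These 4 genes were lower in both CD8 WT libraries, with adjusted p from 0.0672 (Gm4956) to 0.219 (Cd200r1) by limma. Their WT differences were -4.24 (Gm4956), -3.44 (Adh1), -3.44 (AI480653) and -3.23 (Cd200r1). With replicate 1 alone they were -4.60, -2.17, -3.17 and -2.85 in the same order.

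In the other direction, 4 genes of this order were highest in CD8 WT replicate 2. Irg1, a mitochondrial enzyme gene of activated macrophages, had 0.865 and 0.652 TPM in WT CD4 and 12.4 and 315 TPM in WT CD8 cells, Slpi, a secreted protease inhibitor, at 1.52 and 1.95 against 11.5 and 545 TPM, Ier3, a stress-response gene, at 0.747 and 0 against 13.6 and 145 TPM, and Apol11b at 0 and 0 against 5.47 and 248 TPM. Replicate 2 is the library with the high neutrophil and macrophage sum, whose part in these values was not tested. In the KO libraries Apol11b stood near the floor, at 0.173 and 0.163 TPM in CD4 and 0.266 and 0.179 TPM in CD8 cells. The WT differences were 5.21 (Irg1), 4.92 (Slpi), 5.13 (Ier3) and 5.33 (Apol11b). With replicate 1 alone they were 2.93, 2.19, 3.46 and 2.69 in the same order. The KO differences were 2.08 (Irg1), 1.61 (Slpi), 2.50 (Ier3) and 0.06 (Apol11b), and none passed.

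Itm2a and Rcn3, named after their values were seen, passed with CD8 WT replicate 1 alone but not with both libraries. Itm2a, a membrane protein of developing and activated T cells, had 758 and 750 TPM in WT CD4 and 183 and 42.6 TPM in WT CD8 cells, and at 1644 and 1677 against 368 and 382 TPM in the KO libraries. Its WT difference was -3.08 (adjusted p = 0.0724, limma), or -2.04 (adjusted p = 0.00574) with replicate 1 alone. Rcn3, a calcium-binding protein of the endoplasmic reticulum, had 14.4 and 11.8 TPM against 233 and 69.2 TPM, a difference of 3.19 (adjusted p = 0.0672), or 4.06 (adjusted p = 0.00627) with replicate 1 alone.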
